A study of Homo sapiens with 6 samples.

Results

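The genes described here are the receptors for the interferons, the signal transducer STAT2, interferon regulatory factors and a set of interferon-stimulated genes, measured in sorafenib-resistant liver cancer cells given fostamatinib. They were taken by symbol from a list of 48 genes. Of these, 42 had a row among the 16305 genes of the processed files, and IRF7, DHX58, OAS2, OASL, IFI44 and XAF1 were not analysed here. RIG-I was listed under its older symbol, DDX58.

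RNA-seq was carried out on Huh7-R cells (Huh7SR in the sample labels), a pool of cells made resistant to the kinase inhibitor sorafenib from the human hepatocellular carcinoma line Huh7. The Fostamatinib group of 3 samples was given fostamatinib, a prodrug of a spleen tyrosine kinase inhibitor, for 24 h at 2 µM, and the DMSO group of 3 samples was given the solvent for the same time, with the same dose written in the labels. All samples came from 1 resistant pool of 1 cell line, so the values describe that pool alone. The comparison asks how the interferon pathway genes of these cells differed between drug and vehicle, and no interferon is named among the treatments.

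Levels are given as CPM, the reads of a gene per 1000000 reads of its library, with library sizes scaled by the TMM method. Depth was 13303451 to 15272737 reads on genes per sample. Over 12249 genes, the chi-square per degree of freedom, which is near 1 for counting error alone, was 1.65 to 3.75 between samples of a group and 39.8 to 44.5 across groups. Of the hepatocyte markers, 11 of 11 were measured, and their summed level was 5107 to 5444 CPM in DMSO and 6932 to 7337 CPM in Fostamatinib. Of the leukocyte markers, 3 of 12 had a row, CD3D, CD14 and ITGAM, and PTPRC had none; they summed to 16.1 to 16.6 CPM in DMSO and 9.81 to 11.4 CPM in Fostamatinib. Of the fibroblast and stellate cell markers, 5 of 7 had a row, with a sum of 297 to 305 CPM in DMSO and 308 to 311 CPM in Fostamatinib. That sum joined opposite changes. COL1A2 was at 140 to 145 CPM in DMSO and 181 to 187 CPM in Fostamatinib, and LUM at 146 to 152 and 108 to 117 CPM. COL1A1, COL3A1 and PDGFRB had far lower levels, and every Fostamatinib sample was above every DMSO sample. PECAM1 was the only 1 of 4 endothelial markers with a row, at 6.10 to 6.93 CPM in DMSO and 8.72 to 9.89 CPM in Fostamatinib. The part of these markers in the results was not tested.

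Type I interferons are secreted when a cell senses viral nucleic acid, and they act on nearly all nucleated cells, hepatocytes included. Type I interferons bind IFNAR1 and IFNAR2, type III interferons bind IFNLR1 with IL10RB, and both lead through the kinases JAK1 and TYK2 to a complex with STAT2 and IRF9 that binds the interferon-stimulated response element (ISRE). Interferon-gamma binds IFNGR1 and IFNGR2 and signals through JAK1 and JAK2 to genes with a gamma-activated site (GAS).

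The interferon genes did not move in 1 direction. With fostamatinib, 12 of the 42 genes were higher, 13 were lower and 17 did not pass the test (limma, Benjamini-Hochberg adjusted p under 0.05 over all genes). The share called was 59.5%, beside 47.8% of all genes tested, of which 23.3% were higher and 24.5% lower. The median log2 fold change of the 42 genes was -0.06, beside 0.0015 for all genes, and the median size without regard to sign was 0.32, beside 0.27. At a log2 fold change of at least 0.5 in size, 6 genes were higher and 5 lower, beside 9.33% and 9.68% of all genes. The 6 were CXCL10, IFIT1, GBP2, STAT2, DDX58 and IFIT2, and the 5 were IFNGR1, OAS3, DTX3L, UBE2L6 and IFNAR2. Fostamatinib samples lay wholly above the DMSO samples for 14 genes and wholly below for 11, beside 26.8% and 27.4% of all genes. Together these were 59.5% of the 42 genes and 54.1% of all genes. Tested against a log2 fold change of 0.5 instead of 0, 4 of the 42 genes passed, beside 1178 of all 16305 genes. The 4 were GBP2 as higher and IFNGR1, OAS3 and DTX3L as lower. Of the 42 genes, 5 had a mean under 20 reads in both groups (OAS1, IFITM1, IFI27, IFI44L and BST2), and none of these was called. Among all 16305 genes, 3107 had a mean under 20 reads in both groups, so the shares of all genes are not matched for level.

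**Figure D1:**
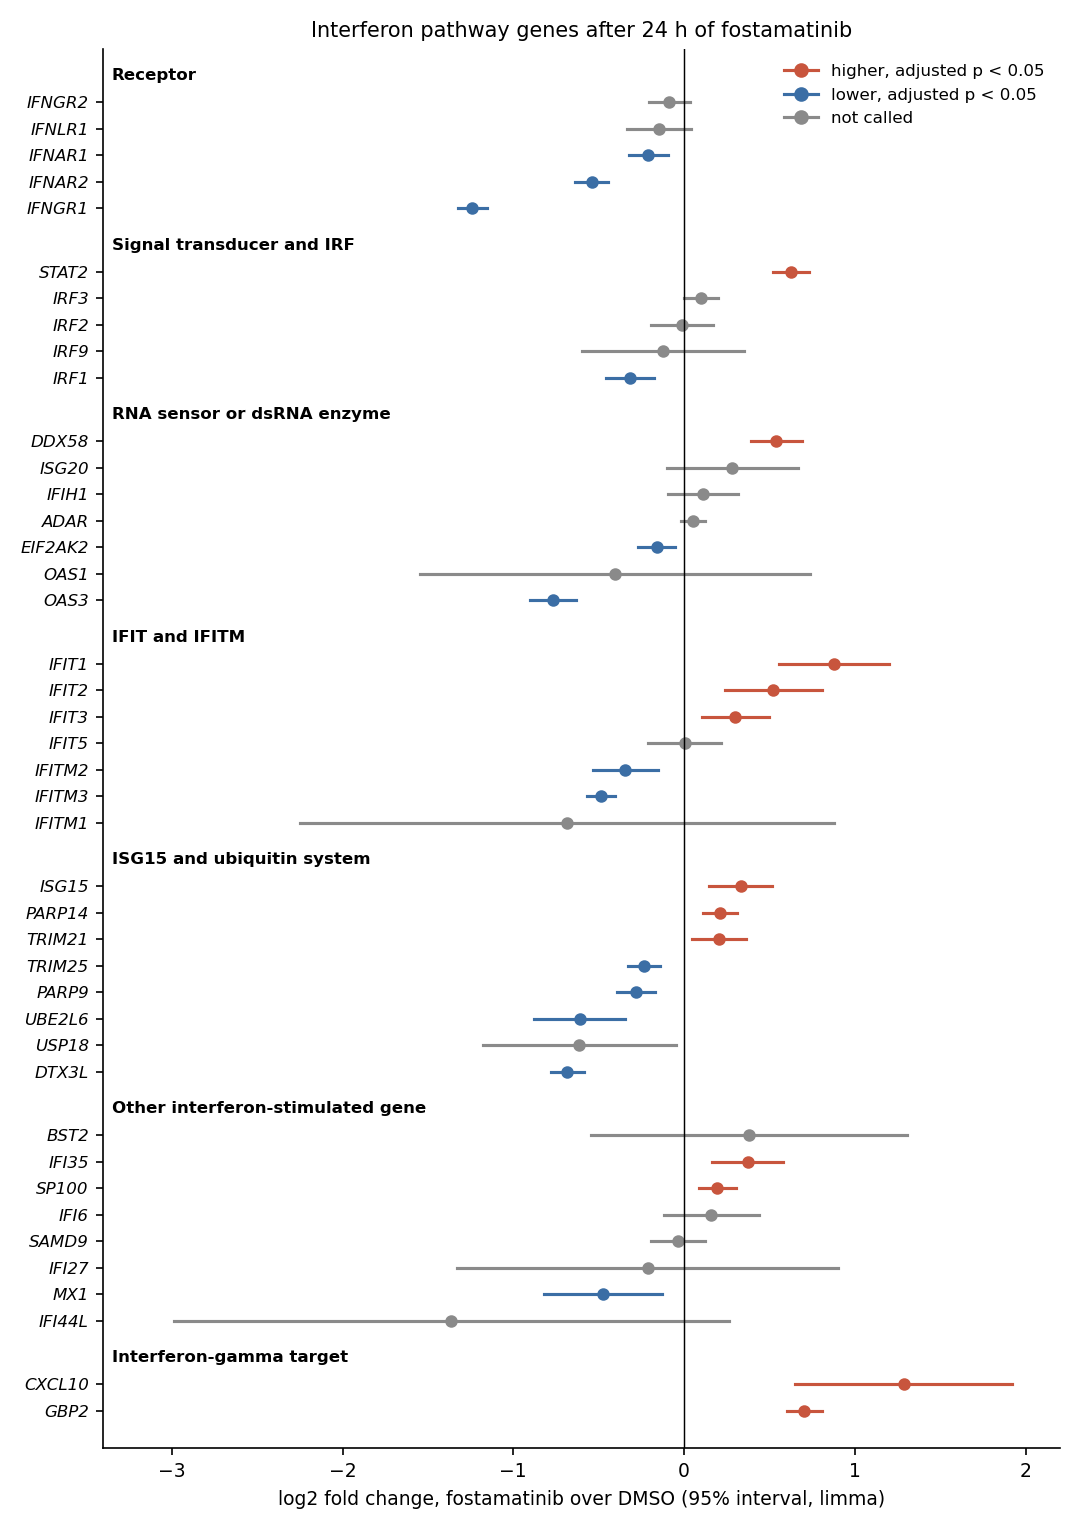
Log2 fold change of fostamatinib over DMSO (horizontal axis) for the 42 interferon genes, grouped by role, with 95% confidence intervals as bars and points coloured by call at an adjusted p of 0.05. The values run from -1.36 for IFI44L, whose interval spans 0, to 1.29 for CXCL10, and called genes of both directions stand in the groups of RNA sensors, IFIT and IFITM genes, and ISG15 and ubiquitin genes.

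Among the receptors, 3 of 5 were lower and none was higher, beside 24.5% and 23.3% of all genes. The same shares of all genes stand beside the counts of every role and list below. IFNGR1 encodes the ligand-binding chain of the interferon-gamma receptor and lies on the minus strand of chromosome 6 (hg19 chr6:137518620-137540586). It measured 231, 238 and 244 CPM in the DMSO samples and 98.1, 103 and 101 CPM in the Fostamatinib samples. The 2 groups were far apart beside the spread within each. The level fell from 237 ± 6.56 to 101 ± 2.30 CPM (SD, n = 3), a log2 fold change of -1.24 (SE 0.043, limma adjusted p = 5.2e-23), which is 2.36-fold lower. In bulk RNA, fewer cells with the transcript and less transcript per cell cannot be told apart. IFNGR2, the partner chain, measured 52.1, 58.1 and 57.3 CPM with DMSO and 49.4, 53.8 and 54.4 CPM with fostamatinib. The ranges of IFNGR2 overlapped, and its log2 fold change of -0.09 (95% interval -0.21 to 0.03) did not pass (adjusted p = 0.233). The ratio of IFNGR1 to IFNGR2 reads was 4.10 to 4.42 in DMSO and 1.86 to 1.98 in Fostamatinib samples.

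The type I receptor genes IFNAR2 and IFNAR1 lie beside IFNGR2 on chromosome 21, within hg19 chr21:34577587-34851655. IFNAR2 encodes the high-affinity ligand-binding chain. It measured 142, 127 and 140 CPM in DMSO and 93.8, 93.9 and 93.1 CPM in Fostamatinib samples. No sample of the second group reached the first, and IFNAR2 fell by 0.54 on the log2 scale (SE 0.047, adjusted p = 7.8e-12), from 136 ± 7.68 to 93.6 ± 0.435 CPM. IFNAR1, the other chain, measured 64.5, 62.1 and 71.0 CPM with DMSO and 55.8, 55.7 and 59.3 CPM with fostamatinib. These groups were separate by a small margin, and IFNAR1 fell by 0.21 (SE 0.057, adjusted p = 0.0027), a call lost when the variance was modelled without its trend on expression (adjusted p = 0.0613). IFNLR1, the chain specific to type III interferon, measured 18.2, 17.7 and 16.1 CPM with DMSO and 17.3, 14.2 and 15.5 CPM with fostamatinib. Its groups overlapped, and the log2 fold change was -0.15 (95% interval -0.34 to 0.04, adjusted p = 0.197). Gene spans were read from GENCODE v44, a later release than the one the authors counted with. There, 35784 bases of IFNAR2 lie in a readthrough gene with IL10RB on the same strand. DDX58 has 70886 bases in another annotated gene on its strand, and GBP2 shares 18715 bases with GBP7. IRF9, IFITM1, IFITM2 and TRIM25 share 5219, 5232, 990 and 2387 bases with genes on their strands. These are whole gene spans with introns, so whether they affected the division of the counted reads is not known.

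Of the signal transducers and IRFs, 5 of 6 were measured, with 1 higher, 1 lower and 3 that did not pass. STAT2 is the transducer specific to type I and type III signalling. It measured 73.8, 70.6 and 68.5 CPM in DMSO and 102, 111 and 116 CPM in Fostamatinib samples. All Fostamatinib samples were above all DMSO samples, and STAT2 rose by 0.63 on the log2 scale (SE 0.052, adjusted p = 1.87e-12), or 1.54-fold. IRF9 is the DNA-binding partner of STAT2, and it had 41, 28 and 33 reads in DMSO and 28, 28 and 31 reads in Fostamatinib samples. At this depth no difference of IRF9 was detectable (log2 fold change -0.12, 95% interval -0.60 to 0.35, adjusted p = 0.698).

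IRF1, a transcription factor induced by interferon-gamma, measured 36.5, 37.3 and 35.7 CPM in DMSO and 31.7, 28.0 and 28.3 CPM in Fostamatinib samples. Every Fostamatinib sample was lower, and IRF1 fell by 0.32 (SE 0.068, adjusted p = 0.000198). IRF2, which competes with IRF1 for its sites, measured 15.8, 17.4 and 16 CPM with DMSO and 16.8, 16.7 and 15.3 CPM with fostamatinib, a log2 fold change of -0.01 (95% interval -0.19 to 0.17, adjusted p = 0.919). IRF3, which is activated by phosphorylation after nucleic acid sensing, measured 99.3, 93.7 and 89.4 CPM with DMSO and 102, 99.6 and 101 CPM with fostamatinib. IRF3 samples did not overlap between groups, yet its log2 fold change of 0.10 did not pass (adjusted p = 0.094).

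A second list of 15 genes, all measured, joined JAK kinases and their partners with brakes on the pathway, such as SOCS, PIAS and PTPN genes. Of the whole list, 4 were higher, 6 lower and 5 did not pass (median log2 fold change -0.14). Of the kinases, TYK2 was higher, JAK1 lower and JAK2 did not pass. TYK2, the kinase bound to IFNAR1, measured 70.9, 73.3 and 67.0 CPM with DMSO and 95.7, 97.9 and 105 CPM with fostamatinib, and rose by 0.50 (adjusted p = 3.96e-10). JAK1 fell by 0.15 (adjusted p = 0.000524), with 515 to 534 CPM in DMSO and 468 to 476 CPM in Fostamatinib samples. JAK2 had a log2 fold change of -0.23 that did not pass (adjusted p = 0.166).

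SOCS1, SOCS3 and CISH encode brakes on JAK kinases that are themselves induced through STAT proteins. SOCS1 had 131, 135 and 121 reads in DMSO and 31, 19 and 16 reads in Fostamatinib samples. SOCS3 had 343, 405 and 374 reads in DMSO and 39, 45 and 47 reads in Fostamatinib samples. Both genes were far lower in each Fostamatinib sample than in any DMSO sample. SOCS1 fell by 2.49 on the log2 scale (SE 0.198, adjusted p = 6.41e-13), or 5.62-fold, and SOCS3 fell by 3.0 (SE 0.118, adjusted p = 2.65e-21), or 7.98-fold. CISH fell by 0.94 (SE 0.219, adjusted p = 0.000499), between 3.56 and 3.77 CPM with DMSO and between 1.53 and 2.60 CPM with fostamatinib. The PIAS and PTPN genes of the list, named for completeness after their values were seen, went both ways. PIAS1, PIAS3 and PTPN6 rose by 0.37, 0.27 and 0.38 (adjusted p = 2.67e-07, 0.000693 and 9.33e-05). PTPN2 and PTPN11 fell by 0.42 and 0.41 (adjusted p = 2.92e-07 and 2.01e-11), and PIAS4 and PTPN1 did not pass.

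**Figure D2:**
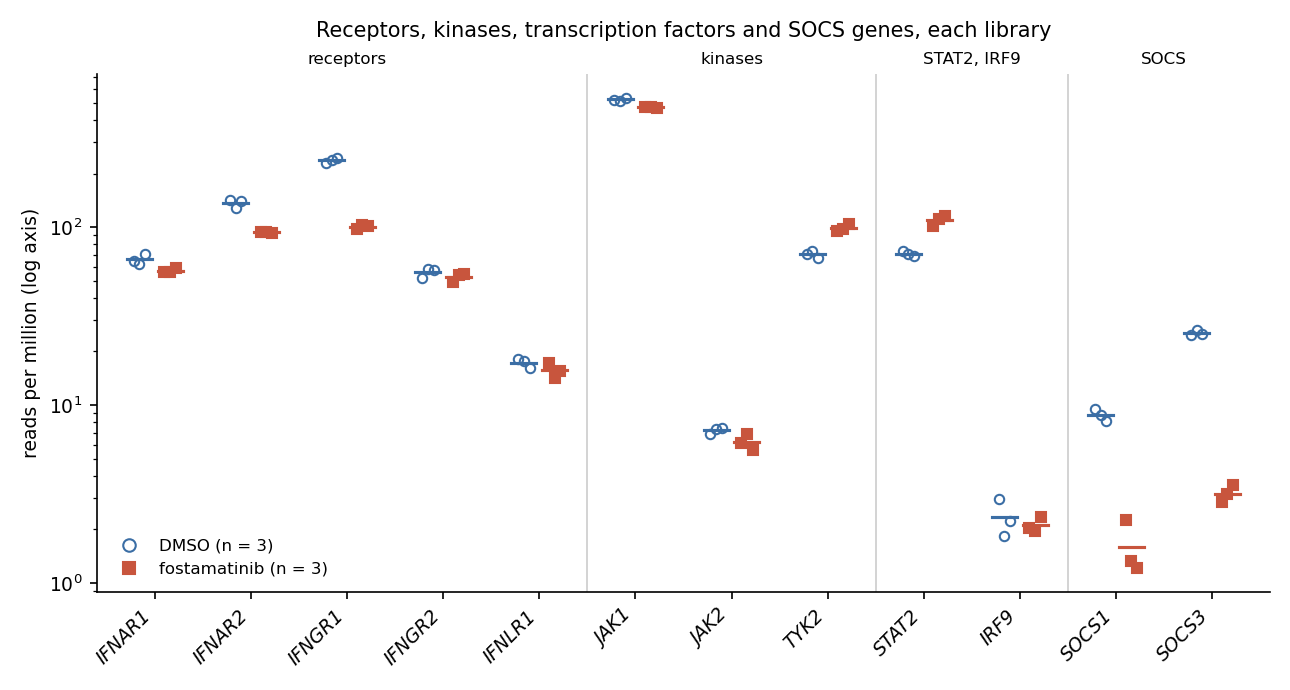
Levels of receptor, kinase, STAT2, IRF9 and SOCS genes in each sample, in CPM on a log axis; each point is 1 of the 3 DMSO (open circles) or 3 Fostamatinib (filled squares) samples and short bars are group means. IFNGR1, IFNAR2, SOCS1 and SOCS3 are lower in every Fostamatinib sample and STAT2 and TYK2 are higher, while the points of IFNGR2, IFNLR1 and IRF9 overlap between groups.

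The promoter windows of RefSeq (GRCh38.p14, 250 bases before to 50 after each start, 300 in all) were searched on both strands for 2 motifs. These were an ISRE core (GAAA, any 2 bases, GAAA) and a GAS core (TTC, any 3 bases, GAA), matched by letters alone. Windows were found for 37 of the 48 genes. An ISRE core stood in the windows of 22 of these 37 genes (59.5%), beside 1195 of 27305 genes of the table (4.38%), and counted by window in 26 of 50 (52.0%) beside 1255 of 35116 (3.57%). A GAS core stood in 10 of 37 genes (27.0%) beside 9.38% of all genes. The ISRE stretches below are of genes that were higher (IFIT1, ISG15, CXCL10) and of genes that were lower (OAS3, PARP9, IFITM3) with fostamatinib. Matches of both can so be read side by side, and IRF1 is shown for its GAS core. Capitals mark the matches, and each stretch is given 5′ to 3′ on the strand of its gene.
IFIT1 (chr10:89392487-89392549, plus strand): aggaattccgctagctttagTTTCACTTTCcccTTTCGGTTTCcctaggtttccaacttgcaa
ISG15 (chr1:1013364-1013419, plus strand): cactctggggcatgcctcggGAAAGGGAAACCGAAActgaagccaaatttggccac
CXCL10 (chr4:76023689-76023738, minus strand): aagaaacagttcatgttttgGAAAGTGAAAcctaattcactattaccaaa
OAS3 (chr12:112938442-112938473, plus strand): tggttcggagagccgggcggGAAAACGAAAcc
PARP9 (chr3:122564312-122564361, minus strand): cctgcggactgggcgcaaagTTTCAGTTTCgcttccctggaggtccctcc
IFITM3 (chr11:320866-320932, minus strand): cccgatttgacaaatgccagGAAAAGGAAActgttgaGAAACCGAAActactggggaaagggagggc
IRF1 (chr5:132490869-132490917, minus strand): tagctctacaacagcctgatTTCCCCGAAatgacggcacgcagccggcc

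In IFIT1 the ISRE core occurred at 116 to 107 and again at 103 to 94 bases before the start, both read on the opposite strand. In ISG15, matches at 113 to 104 and at 107 to 98 bases shared 4 bases, and IFITM3 held matches at 52 to 43 and at 35 to 26 bases. The cores of OAS3, at 12 to 3 bases, and PARP9, at 41 to 32 bases, lay closer to the start than that of CXCL10, at 221 to 212 bases. The window of DTX3L, which shares a bidirectional promoter with PARP9, held the same 10 bases. An ISRE core was present in 6 of the 10 higher genes with a window, in 6 of the 11 lower genes and in 9 of the 14 genes that did not pass. The 21 measured genes with an ISRE core had a median log2 fold change of 0.0041 and ran from -1.36 to 1.29. The 14 measured genes without one had a median of -0.13 and ran from -1.24 to 0.63. A match of letters is a description of the window and does not show that a factor bound there.

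**Figure D3:**
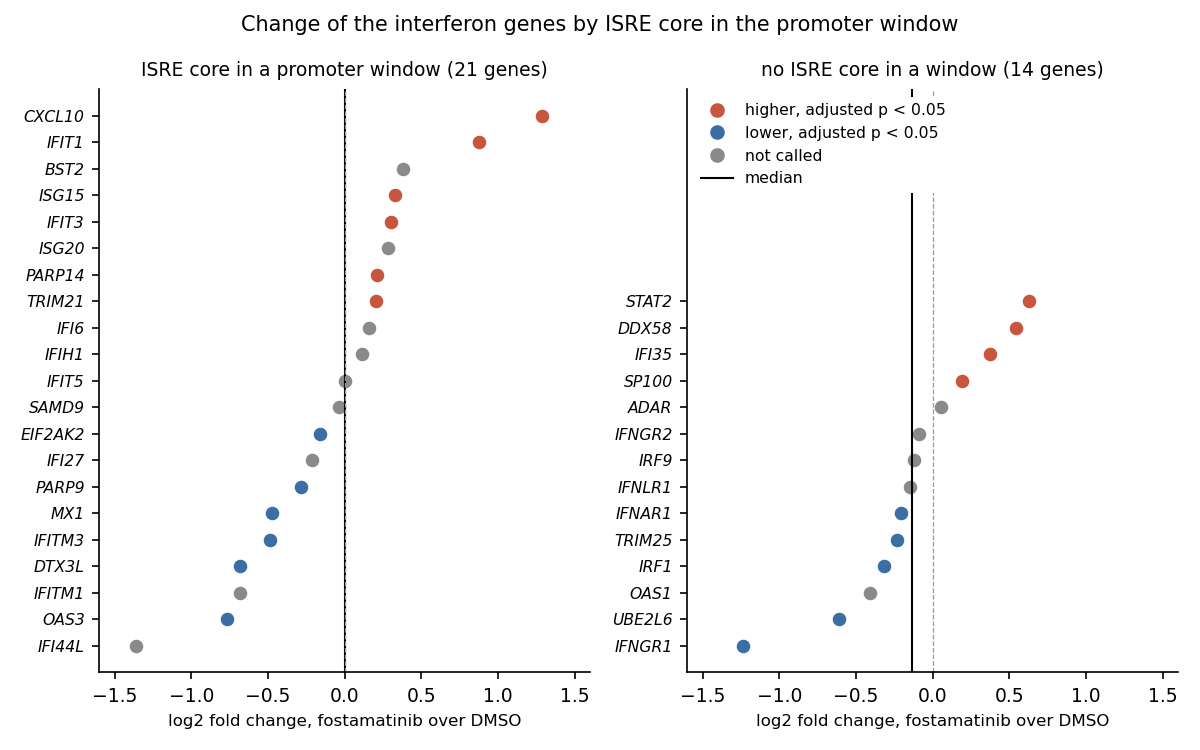
Log2 fold change of fostamatinib over DMSO for the 35 measured interferon genes with a promoter window, split by the presence (21 genes) or absence (14 genes) of an ISRE core; the solid line is the median of each panel and colours show the call. Higher and lower genes stand in both panels, with CXCL10 and IFIT1 at the top and OAS3 near the bottom of the genes with the core.

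Of the interferon-stimulated genes, without receptors, STAT2 and IRFs, 32 of 37 were measured, and 11 were higher, 9 lower and 12 did not pass, with a median log2 fold change of 0.03. The sensors of viral RNA and enzymes acting on double-stranded RNA were measured for 7 of 10 genes, of which 1 was higher and 2 lower. DDX58 encodes RIG-I, which detects RNA with a 5′ triphosphate. It measured 22.3, 22.4 and 24.4 CPM in DMSO and 36.0, 33.6 and 31.1 CPM in Fostamatinib samples. All Fostamatinib samples were higher, and DDX58 rose by 0.54 on the log2 scale (SE 0.074, adjusted p = 1.43e-07). OAS3 makes the 2-5A signal that activates RNase L, and it measured 66.6, 66.6 and 62.2 CPM with DMSO and 41.0, 40.4 and 33.7 CPM with fostamatinib. OAS3 was lower in each Fostamatinib sample and fell by 0.77 (SE 0.065, adjusted p = 3.33e-12).

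EIF2AK2, the kinase PKR, fell by 0.16 (adjusted p = 0.0114), although its samples overlapped between groups, and the call was lost without DMSO replicate 3 (-0.09), without Fostamatinib replicate 1 (-0.12) and without the variance trend. IFIH1, which encodes the sensor MDA5, had a log2 fold change of 0.11 (adjusted p = 0.392), and ISG20, an exonuclease gene, had 0.28 (adjusted p = 0.228). ADAR, which edits adenosine in double-stranded RNA, stood at 471 to 485 CPM in DMSO and 484 to 506 CPM in Fostamatinib samples (log2 fold change 0.05, adjusted p = 0.206). OAS1 had 2, 15 and 9 reads in DMSO and 6, 4 and 4 in Fostamatinib samples, too few to detect a difference.

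All 7 IFIT and IFITM genes were measured, with 3 higher and 2 lower. IFIT proteins bind viral RNA, and their genes stand together within hg19 chr10:91043451-91181362. IFIT1 had 51, 79 and 83 reads in DMSO and 135, 143 and 90 reads in Fostamatinib samples. The lowest Fostamatinib sample, replicate 3, was still above the highest DMSO sample, and IFIT1 rose by 0.88 (SE 0.159, adjusted p = 1.94e-05), or 1.84-fold. IFIT2 measured 5.44, 5.44 and 5.18 CPM with DMSO and 6.47, 8.21 and 8.6 CPM with fostamatinib. The IFIT2 groups were separate, and the rise was 0.52 (SE 0.140, adjusted p = 0.00219). IFIT3 rose by 0.30 (adjusted p = 0.00981), a call lost without Fostamatinib replicate 2 (0.24, adjusted p = 0.0760). IFIT5 had a log2 fold change of 0.0041 (adjusted p = 0.979). The annotated span of LIPA overlaps IFIT1, IFIT2 and IFIT3 on the other strand.

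IFITM proteins block the entry of enveloped viruses, and their genes lie within hg19 chr11:303655-329475. IFITM3 stood at 412 to 456 CPM in DMSO and 296 to 324 CPM in Fostamatinib samples and fell by 0.49 (SE 0.040, adjusted p = 1.78e-12). IFITM2 fell by 0.34 (adjusted p = 0.00259), a call lost without the variance trend (adjusted p = 0.0663). IFITM1 had 6, 1 and 7 reads in DMSO and 1, 1 and 6 reads in Fostamatinib samples, which do not allow a difference to be seen. The IFIT genes called and the IFITM genes called thus lay on opposite sides of 0. IFITM1, IFITM2 and IFITM3 are alike in sequence, and how reads that fit more than 1 of them were counted is not given in the sources used here.

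**Figure D4:**
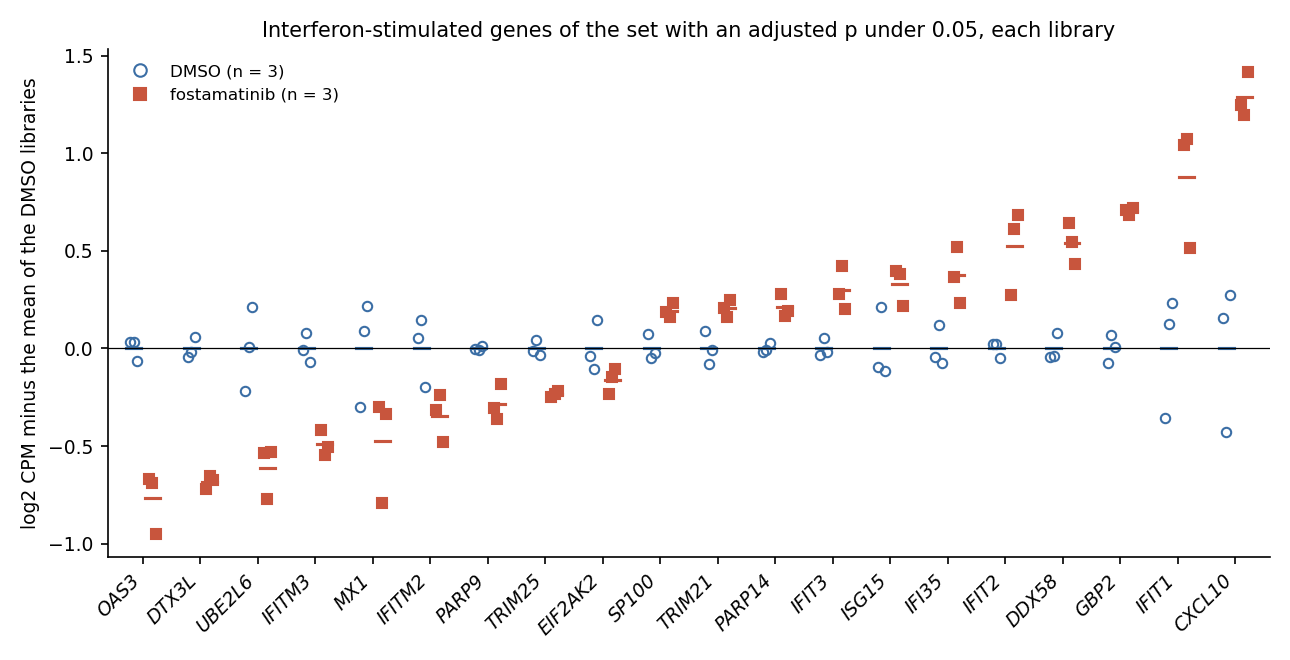
The 20 called interferon-stimulated genes in each sample, as log2 CPM minus the mean of the DMSO samples of that gene; each point is 1 of the 3 DMSO (open circles) or 3 Fostamatinib (filled squares) samples and short bars are group means. OAS3, DTX3L and UBE2L6 are among the genes lower in every Fostamatinib sample and GBP2, IFIT1 and CXCL10 among those higher in every one, with wider scatter for IFIT1 and CXCL10.

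ISG15 is a ubiquitin-like protein that is joined to other proteins, and the genes of ISG15 and the ubiquitin and ADP-ribose systems were all measured, with 3 of 8 higher and 4 lower. ISG15 rose by 0.33 (adjusted p = 0.00246), with 16.3 to 20.4 CPM in DMSO and 20.4 to 23.2 CPM in Fostamatinib samples, and the call was lost without the variance trend (adjusted p = 0.0661). UBE2L6, the enzyme that carries ISG15 to its ligase, measured 8.34, 9.76 and 11.2 CPM in DMSO and 6.69, 5.68 and 6.72 CPM in Fostamatinib samples. UBE2L6 was lower in every Fostamatinib sample and fell by 0.61 (SE 0.131, adjusted p = 0.000188). USP18, the protease that removes ISG15 and also restrains IFNAR2, had a log2 fold change of -0.61 that did not pass (adjusted p = 0.0683); it passed without Fostamatinib replicate 1 (-0.91, adjusted p = 0.0122) and among genes with at least 10 reads in every sample (adjusted p = 0.0469).

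DTX3L and PARP9 encode partners in a ubiquitin ligase complex and are transcribed away from each other on chromosome 3, at hg19 chr3:122283185-122294050 (plus strand) and chr3:122246771-122283424 (minus strand). DTX3L measured 120, 122 and 128 CPM in DMSO and 74.7, 78.2 and 77.0 CPM in Fostamatinib samples. The groups of DTX3L were far apart, and it fell by 0.68 (SE 0.048, adjusted p = 2.17e-14). PARP9 stood at 70.8 to 71.7 CPM in DMSO and 55.5 to 62.8 CPM in Fostamatinib samples and fell by 0.28 (adjusted p = 5.11e-05). Both were lower, by unequal amounts: the ratio of DTX3L to PARP9 reads was 1.68 to 1.79 in DMSO and 1.23 to 1.41 in Fostamatinib samples. Their annotated spans overlap by 240 bases on opposite strands; the library kit keeps strand, and whether the counting used it is not given in the sources used here. PARP14, a neighbouring gene of the same family, rose by 0.21 (adjusted p = 0.000423). TRIM25, which ubiquitinates RIG-I, fell by 0.23 (adjusted p = 6.51e-05). TRIM21, a cytosolic antibody receptor and ligase, rose by 0.21 (adjusted p = 0.0263), a call lost without DMSO replicate 2 (0.17), Fostamatinib replicate 1 (0.21) or Fostamatinib replicate 3 (0.18).

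CXCL10 and GBP2, induced strongly by interferon-gamma, were both higher. CXCL10, a chemokine for activated T cells, had 11, 8 and 13 reads in DMSO and 24, 24 and 26 reads in Fostamatinib samples. Its counts were few but did not overlap, and CXCL10 rose by 1.29 (SE 0.313, adjusted p = 0.000831), or 2.44-fold. GBP2, a guanylate-binding protein that attacks vacuoles of intracellular pathogens, measured 62.8, 69.3 and 66.5 CPM with DMSO and 108, 106 and 109 CPM with fostamatinib. The GBP2 groups were separate, and it rose by 0.70 (SE 0.050, adjusted p = 3.3e-14), or 1.63-fold. GBP1, a close relative chosen for mention after its values were seen, fell by 0.76 (adjusted p = 2.77e-12), and the ratio of GBP1 to GBP2 reads was 0.717 to 0.817 in DMSO and 0.253 to 0.284 in Fostamatinib samples. GBP3, another relative, rose as GBP2 did, by 0.32 (adjusted p = 7.88e-05). It stood at 31.5 to 34.0 CPM in DMSO and 39.1 to 42.1 CPM in Fostamatinib samples.

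Of the remaining interferon-stimulated genes, 8 of 10 were measured, with 2 higher and 1 lower. IFI35, a partner of NMI, rose by 0.37 (adjusted p = 0.0027), with 10.7 to 12.3 CPM in DMSO and 13.3 to 16.2 CPM in Fostamatinib samples. SP100, a protein of nuclear bodies, rose by 0.19 (adjusted p = 0.00289). MX1, a dynamin-like antiviral protein, fell by 0.48 (adjusted p = 0.0199), with 4.64, 6.09 and 6.66 CPM in DMSO and 4.65, 3.30 and 4.53 CPM in Fostamatinib samples. The lowest DMSO sample of MX1 was within the Fostamatinib range, and the call was lost without DMSO replicate 2 (-0.43), DMSO replicate 3 (-0.37), Fostamatinib replicate 2 (-0.32) or the variance trend. IFI6, a mitochondrial protein gene, had a log2 fold change of 0.16 (adjusted p = 0.355), and SAMD9, an antiviral factor gene, had -0.04 (adjusted p = 0.733). IFI44L had 2, 6 and 5 reads in DMSO and 3, 2 and 0 reads in Fostamatinib samples, so its log2 fold change of -1.36 had a 95% interval of -2.99 to 0.26. IFI27 had a log2 fold change of -0.21 that did not pass (adjusted p = 0.775). BST2 had 4, 6 and 15 reads in DMSO and 8, 11 and 8 reads in Fostamatinib samples, and its log2 fold change of 0.38 did not pass (adjusted p = 0.522) and ran from 0.037 without DMSO replicate 1 to 0.87 without DMSO replicate 3.

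Per length of the canonical transcript, the interferon genes of DMSO cells spanned a wide range of levels. IFITM3 was highest at 708 ± 36.6 RPKM (CPM per 1000 bases of that transcript; SD, n = 3), followed by IFNGR1 at 115 ± 3.16, ADAR at 72.5 ± 1.07 and IRF3 at 59.0 ± 3.12, each above the next beyond its spread. IFNAR2 at 33.4 ± 1.89 and IFNGR2 at 32.9 ± 1.92 did not differ beyond their spread. With fostamatinib, IFNGR1 stood at 48.5 ± 1.11 RPKM, while STAT2 went from 16.1 ± 0.605 to 24.9 ± 1.61. In DMSO cells, 20 of the 42 genes reached 10 RPKM, or 11 where the length of all annotated exons was used. The lowest, IFI44L, was at 0.050.

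**Figure D5:**
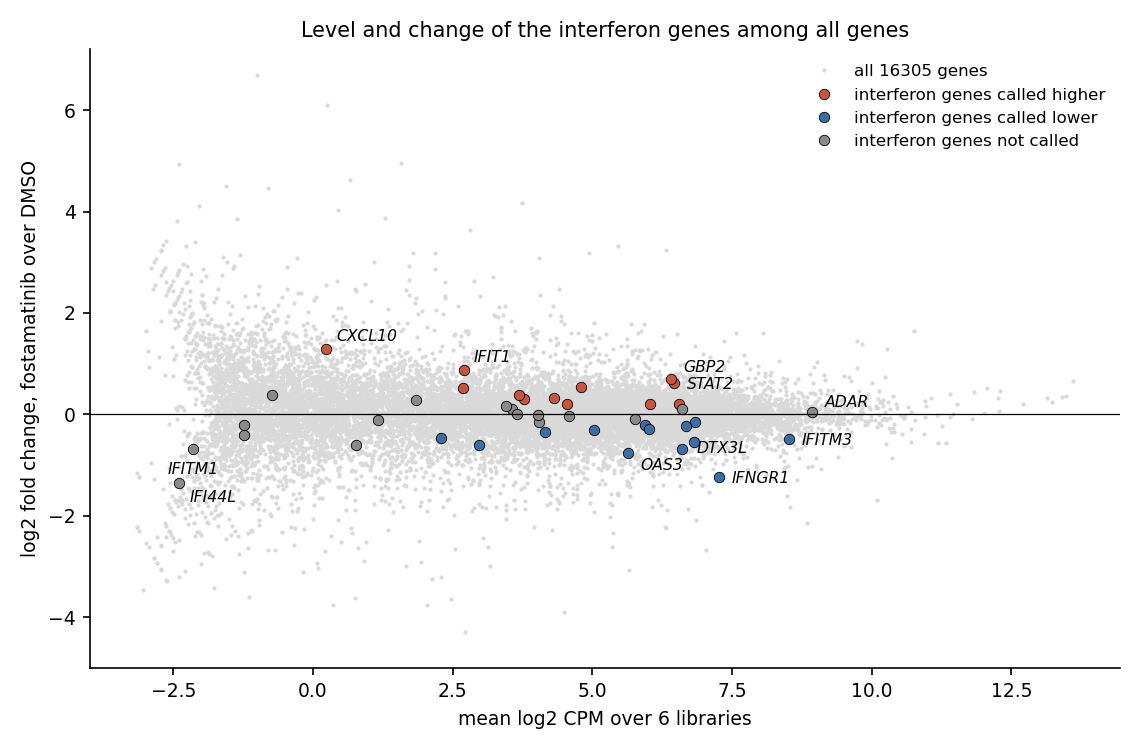
Log2 fold change of fostamatinib over DMSO (vertical axis) against the mean log2 CPM (horizontal axis) of 16305 genes in grey and of the 42 interferon genes in colour by call. The interferon genes lie on both sides of 0 at high and low levels, with IFNGR1 the lowest of the well-expressed ones, at -1.24.

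Further genes of the pathway were read from the other lists. None of 10 interferon ligand genes searched (IFNB1, IFNG and IFNL1 among them) had a row. Of the adaptors and kinases of nucleic acid sensing, 13 of 20 were measured, with 1 higher and 3 lower. MAVS, the mitochondrial adaptor of RIG-I and MDA5, rose by 0.30 (adjusted p = 2.9e-08), with 291 to 301 CPM in DMSO and 356 to 376 CPM in Fostamatinib samples. IKBKE, a kinase that activates IRF3 and IRF7, fell by 0.39 (adjusted p = 3.22e-05), with 31.5 to 34.3 CPM in DMSO and 22.9 to 27.0 CPM in Fostamatinib samples. MYD88, an adaptor of Toll-like receptors, fell by 0.18 (adjusted p = 0.0159), a call lost without DMSO replicate 1, Fostamatinib replicate 2 or Fostamatinib replicate 3 (adjusted p = 0.0616, 0.0540 and 0.0805). TLR3, the other gene called lower and named for completeness after its values were seen, had 5, 6 and 11 reads in DMSO and 2, 3 and 1 reads in Fostamatinib samples. TLR3 met the authors' minimum of reads in DMSO only, the group where it was high, so its call gives no support to the count.

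A further list of 53 interferon-stimulated genes had 38 measured, of which 15 were higher, 11 lower and 12 did not pass, with a median log2 fold change of -0.0096. At a log2 fold change of at least 0.5 in size, 1 was higher and 7 lower, beside 9.33% and 9.68% of all genes. APOL6, an apolipoprotein L gene, stood at 32.5 to 39.2 CPM in DMSO and 12.6 to 14.2 CPM in Fostamatinib samples and fell by 1.44 (SE 0.083, adjusted p = 1.16e-16). WARS, the tryptophanyl-tRNA synthetase induced by interferon-gamma, fell by 0.89 (adjusted p = 1.14e-14), at 61.1 to 66 CPM in DMSO and 32.4 to 35.7 CPM in Fostamatinib samples. EPSTI1 fell by 0.82 (adjusted p = 0.000897), at 3.67 to 3.77 CPM in DMSO and 1.82 to 2.26 CPM in Fostamatinib samples. TMEM140 rose by 0.93 (adjusted p = 2.52e-15), with 30.5 to 32.6 CPM in DMSO and 58.5 to 61.2 CPM in Fostamatinib samples. Over the 4 lists, 66 of 98 genes were measured, and 20 were higher and 20 lower. The share called was 60.6%, beside 47.8% of all genes, of which 23.3% were higher and 24.5% lower. Where the minimum of reads had to be met in both groups, which removed TLR3, 39 of 65 were called, beside 7536 of 15126 of all genes.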

How the data were processed

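RNA was sequenced after poly(A) selection with a directional kit. Per the submitters' notes and methods, the authors used HISAT (build hg19) and featureCounts, removed low genes and applied TMM scaling. The deposited values are log2 CPM, with 0.5 added to each count. Reads recovered from them were whole within 0.05 for 100% of values, and gave the depth (13303451 to 15272737 reads on genes). The filter kept genes with at least 5 reads in 2 of 3 samples of a group; 39 of 42 genes met it in both groups, and OAS1, IFITM1 and IFI44L in DMSO only.

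The 3 DMSO and 3 Fostamatinib samples, grouped by their labels, were compared with limma 3.58.1 in R 4.3.3 (lmFit, eBayes with a variance trend) on 16305 genes, with treatment as the only term, Benjamini-Hochberg adjustment and a call at 0.05. limma pools the spread over genes (33.9 total degrees of freedom for the median gene, 4 from the samples), and small p-values rest on it; an exact permutation test of 3 against 3 cannot go below 0.10. The labels give triplicate treatments but do not say that cultures were separate, so p-values measure the spread between these samples, which may be technical. The offset of 0.5 understates fold changes of low genes. Promoter windows were read from RefSeq (GRCh38.p14) and gene spans from GENCODE v44 on GRCh37, and RPKM used the canonical transcript, with Python 3.11.15 and pandas 2.3.3. The script was tested on simulated data.

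Genes were given in full if called with a log2 fold change of at least 0.5 in size and a mean of 20 reads in a group, and if receptors, STAT2 or IRFs; of the other lists, JAK1, JAK2, TYK2, SOCS1, SOCS3 and the 4 largest called changes of each were named. An item that the rule names is not reported here and was left out of the list counts. The genes and lists were chosen with earlier results of these data known. Alternatives were limma-voom, no variance trend, RLE or library-size scaling, an offset of 2, filters of at least 10 reads in every sample or of both groups, a replicate block, each sample left out, and a test against 0.5.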

Additional observations from a re-analysis of the deposited data

How the results depend on the processing

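The same number of the 42 interferon genes, 25, was called with limma-voom, RLE, library size alone, an offset of 2, the filter on both groups and the replicate block. Among all genes, the filter on both groups called 7536 of 15126, and the other settings just named called 7783 to 7977 of 16305. With at least 10 reads in every sample, 25 of 36 interferon genes tested were called, beside 7321 of 13287 of all genes. There USP18 was gained and CXCL10 was not tested. Without the variance trend 20 interferon genes were called, beside 6382 of 16305 of all genes. Tested against a log2 fold change of 0.5, 4 were called (1 higher, 3 lower), with 1178 of all genes and 8 of the pathway list genes, by construction of a stricter test. Leaving out 1 sample gave 23 to 26 called genes (11 to 13 higher, 11 to 13 lower), 6958 to 7480 among all genes and 35 to 41 among the pathway lists. The cause of these differences was not tested. Groups did not overlap for 25 to 31 genes, beside 25 with all samples. The share of all genes was 54.1% with all samples and is not given for the alternatives. A count of genes without overlap can only stay or rise when a sample is left out, so it is no check of the result.

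Of the 25 called genes, 18 kept their call and direction in every alternative run on them other than the test against 0.5 (CXCL10 was not in the filter of at least 10 reads), and 7 lost the call in at least 1 (IFNAR1, EIF2AK2, IFIT3, IFITM2, ISG15, TRIM21 and MX1); none changed sign. Of the genes not called, 3 gained a call in at least 1 (USP18; IRF3 without DMSO replicate 1, at 0.14; IFI6 without DMSO replicate 2, at 0.34) and 7 changed sign. The cause was not tested. Leaving out 1 sample, the log2 fold change ran from -0.28 to 0.063 for IRF9, from -0.039 to 0.030 for IRF2, from -1.12 to 0.12 for OAS1, from -0.11 to 0.076 for IFIT5, from -0.020 to 0.34 for IFI6, from -0.88 to 0.16 for IFI27 and from -0.073 to 0.018 for SAMD9. With library size alone IFIT5 was -0.0069 and with limma-voom -0.0035.

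No pairing by replicate number was seen, as deviations of same-numbered samples correlated at 0.036, -0.021 and 0.037 over 12249 genes. The labels do not say whether the treatments were run in matched sets, and these correlations cannot settle it. With the replicate block 25 interferon genes, 40 pathway list genes and 7977 of all genes were called, beside 7794 without it. The exon-length and non-overlap alternatives were chosen after seeing the data.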
